A study of Mus musculus with 9 samples.

Results

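The genes described are 10 that act in the repair of torn cell membranes: dysferlin (Dysf), myoferlin (Myof), caveolin-3 (Cav3), annexins A1, A2, A4, A5 and A6 (Anxa1, Anxa2, Anxa4, Anxa5 and Anxa6) and the S100 proteins S100a10 and S100a11. They were chosen by gene symbol, 10 of the 20634 genes in the deposited values, and all 10 were among the 15549 genes with enough counts to be tested. RNA was sequenced from the left ventricle of C57BL/6 mice aged 6 months, which had running wheels for part of their lives and whose hearts were perfused with saline. Knockout (KO) mice lacked delta-sarcoglycan, the product of Sgcd, and wild-type (WT) mice did not. From weaning the mice drank either plain water (vehicle) or water that gave 25 mg/kg/day of ifetroban, which blocks the thromboxane-prostanoid receptor. There were 3 libraries of KO mice on ifetroban, 2 of KO mice on vehicle, 2 of WT mice on ifetroban and 2 of WT mice on vehicle. The labels do not say that libraries came from separate animals, so p-values measure only the spread between these samples.

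Skeletal and cardiac muscle fibres tear during contraction, and the tear is closed when calcium flowing in brings vesicles and calcium-binding proteins to the wound. Dysferlin, a membrane-anchored protein with several calcium-binding C2 domains, takes part in vesicle fusion at the tear, and its loss causes limb-girdle muscular dystrophy. Annexins bind acidic phospholipids when calcium rises and gather as a cap over the lesion, and S100 proteins pair with particular annexins. Delta-sarcoglycan belongs to the dystrophin-associated complex, which steadies the muscle membrane, and mice without it develop cardiomyopathy.

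A pair of libraries calls for care. Sgcd itself had 7.30, 12.9 and 13.3 CPM, read counts scaled to the size of the library, in KO ifetroban and 9.64 and 8.63 CPM in KO vehicle, against 23.7 and 23.5 CPM in WT ifetroban with 8.36 and 20.9 CPM in libraries labelled WT vehicle. The library labelled WT vehicle replicate 1 thus had Sgcd within the KO range, and it keeps its label below, where levels of its cell type markers are also given. Over both treatments the log2 fold change of Sgcd was -0.90 (edgeR, adjusted p = 0.101), and without that library it was -1.10 (adjusted p = 0.0103). Which exons were deleted is not given in the labels, so reads from the rest of the gene may be counted in KO. KO ifetroban replicate 1 has ifetroban in its title and vehicle in its treatment field, and it was analysed as ifetroban. The libraries also fell into sets by transcript length. In KO vehicle, KO ifetroban replicate 1 and the library labelled WT vehicle replicate 1, long transcripts read low relative to the mean of all libraries (Spearman's rho across 13051 genes -0.52 to -0.40), and in the other 5 libraries they read high (0.38 to 0.43). Total counts per library were 21510263 to 30182955.

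Promoter sequences are shown for Anxa1 and Anxa2, the members that passed the test of genotype below, and for Dysf, the gene that gives the group its name and did not pass it. Each is the 250 bases before the annotated start in RefSeq (GRCm38.p6), on the strand of the gene. Dysf and Anxa4 each have another annotated start in that table, and for them the window nearest the start in the files was used. The windows shown lie at chr19:20390672-20390921 (minus strand) for Anxa1, chr9:69453433-69453682 (plus strand) for Anxa2 and chr6:84008348-84008597 (plus strand) for Dysf. Capitals mark matches, on either strand, to a TATA box (TATAAA), a GC box (GGGCGG) or an AP-1 site (TGANTCA), and no match overlaps another.
Anxa1: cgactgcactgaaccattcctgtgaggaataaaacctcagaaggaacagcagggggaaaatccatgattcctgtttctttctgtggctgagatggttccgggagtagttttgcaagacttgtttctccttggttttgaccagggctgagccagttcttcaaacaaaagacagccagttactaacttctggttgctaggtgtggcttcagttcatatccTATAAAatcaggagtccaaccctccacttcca
Anxa2: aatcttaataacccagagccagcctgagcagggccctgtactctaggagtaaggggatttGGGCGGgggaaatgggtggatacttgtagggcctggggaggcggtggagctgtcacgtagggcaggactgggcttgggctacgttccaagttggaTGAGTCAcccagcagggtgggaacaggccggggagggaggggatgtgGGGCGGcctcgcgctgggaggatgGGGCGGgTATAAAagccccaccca
Dysf: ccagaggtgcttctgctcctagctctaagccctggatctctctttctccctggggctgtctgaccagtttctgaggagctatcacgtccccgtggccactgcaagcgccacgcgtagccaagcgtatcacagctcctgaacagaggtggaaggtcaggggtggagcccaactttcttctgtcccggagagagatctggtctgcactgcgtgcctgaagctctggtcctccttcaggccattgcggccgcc
The TATA box starts 32 bases before the start in Anxa1 and 17 before it in Anxa2, and 12.4% of 32851 windows of this length in mouse hold one. The Anxa2 window also holds 3 GC boxes, a motif present in 32.7% of windows, and an AP-1 site, present in 6.75%. Of the 8 members with a window in the table, S100a11 is the other one with a GC box and an AP-1 site, and 5 hold none of the 3 motifs in the window used. The other Dysf window, 10788 bases away, holds 3 GC boxes, and the other Anxa4 window holds none of the motifs. A match describes the letters and does not show binding.

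Levels between genes can be set beside each other only per length. CPM per kilobase of the longest annotated transcript, averaged over all 9 libraries, were highest for Anxa6 at 59.0 ± 3.37 (SD), followed by Anxa5 at 44.6 ± 7.75, Cav3 at 43.4 ± 9.48 and S100a10 at 35.5 ± 12.3. Anxa2 stood at 27.0 ± 9.99, S100a11 at 24.0 ± 9.96, Anxa1 at 12 ± 3.63, Dysf at 10.1 ± 1.52, Anxa4 at 7.36 ± 1.13 and Myof, the relative of dysferlin that serves myoblast fusion, at 1.62 ± 0.435. Between neighbours in this order, mean ± SD overlapped for Anxa5 and Cav3, Cav3 and S100a10, and S100a10 and Anxa2. It also overlapped for Anxa2 and S100a11, S100a11 and Anxa1, and Anxa1 and Dysf, and pairs further apart are not listed. These SDs include differences of genotype and transcript-length set, and the genes were read in the same libraries. Overlap therefore does not show equal levels. S100a11 over Anxa1 per kilobase, for instance, ran from 1.44 to 2.68 within libraries. The counts behind a value ran from 113 for Myof to 4750 for Anxa6.

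**Figure D1:**
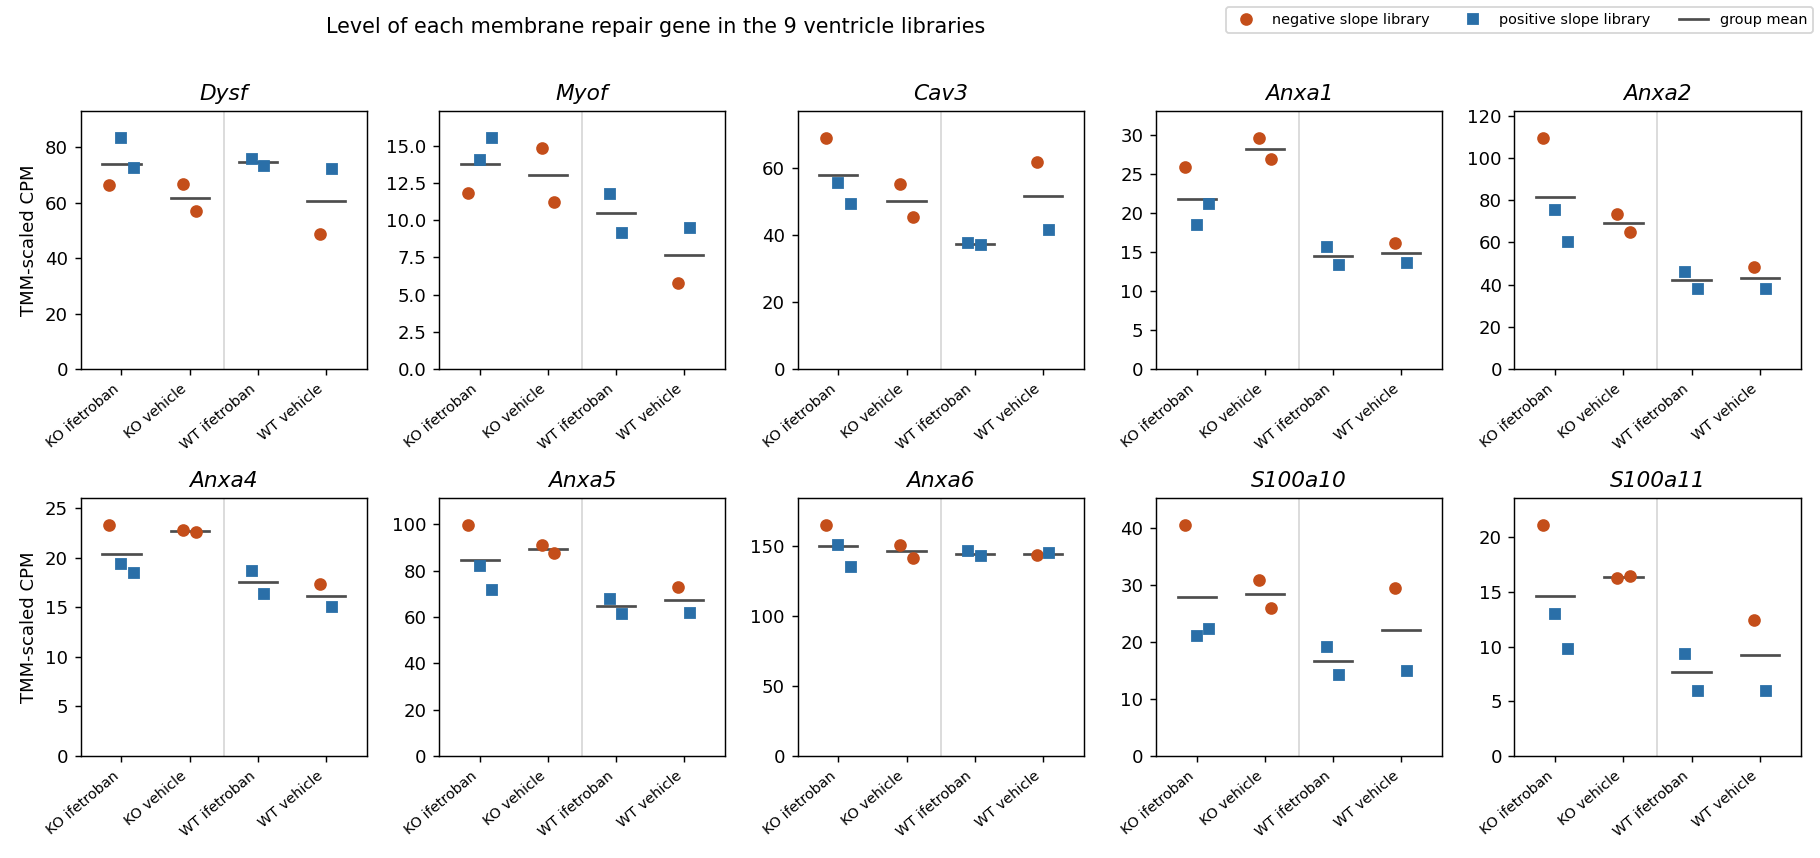
Level of each membrane repair gene in TMM-scaled CPM (y axis, from 0, own scale per gene) in KO ifetroban, KO vehicle, WT ifetroban and WT vehicle (x axis). Each point is 1 library, coloured by the sign of its transcript-length slope, and lines are group means. All 5 KO points of Anxa1 and Anxa2 lie above all 4 WT points, while those of Dysf and Anxa6 overlap.

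The first question was whether the repair genes differ between hearts without delta-sarcoglycan and WT hearts. Over both treatments, Anxa1 and Anxa2 rose in KO, by 1.67 and 1.78-fold, and the other 8 members did not pass the test. Dysf and Anxa6 had the smallest estimates, within the spread between libraries. All 10 estimates were above 0, as were 47% of all genes, with a median log2 fold change of 0.48, against -0.016 for all genes tested. The test was edgeR's quasi-likelihood test with p-values adjusted over the 15549 genes at a threshold of 0.05, and 2.06% of those genes rose and 0.27% fell. At an unadjusted p under 0.05, 7 members were higher in KO, against 9.31% of all genes, and 0 were lower. DESeq2 called 5 members, Anxa1, Anxa2, Myof, Anxa5 and S100a11, and 5.76% of all genes.

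Anxa2 (mm10 chromosome 9, 69453620 to 69491795, plus strand, protein-coding) encodes the annexin that forms a tetramer with S100a10 and brings lipid rafts and actin together at the wound. Its level was 109, 75.4 and 60.0 CPM in KO ifetroban and 73.4 and 64.9 CPM in KO vehicle, against 46.0 and 37.9 CPM in WT ifetroban and 48.5 and 37.7 CPM in libraries labelled WT vehicle. Every KO library was above every WT library, and KO ifetroban replicate 1 was the highest. The mean was 76.6 ± 19.3 CPM in KO (SD, n = 5) and 42.5 ± 5.55 CPM in WT (n = 4). The log2 fold change was 0.83 (SE 0.17, 95% interval 0.45 to 1.21, adjusted p = 0.0337).
Anxa1 (chromosome 19, 20373428 to 20390944, minus strand, protein-coding) encodes the annexin best known as a mediator of glucocorticoid action on leukocytes, which also binds to torn membrane. It had 25.8, 18.5 and 21.2 CPM in KO ifetroban and 29.6 and 26.9 CPM in KO vehicle, against 15.7 and 13.4 CPM in WT ifetroban and 16.2 and 13.6 CPM in libraries labelled WT vehicle. The lowest KO library, at 18.5 CPM, was still above the highest WT library, at 16.2 CPM. The log2 fold change was 0.74 (SE 0.13, 95% interval 0.46 to 1.03, adjusted p = 0.0191). Of all genes tested, 4.62% had every KO library above every WT library, as Anxa1 and Anxa2 did.
Both calls rest on few libraries. Without the library labelled WT vehicle replicate 1 both held, and S100a11 passed as well (adjusted p = 0.0488), with 2.95% of all genes passing. Without both that library and KO ifetroban replicate 1, Anxa1, Anxa2, Cav3 and S100a10 passed, with 3.34% of all genes. Either omission left only WT libraries in which long transcripts read high, but KO libraries of both kinds. Between libraries where long transcripts read high and low, the added genes S100a11, Cav3 and S100a10 differed by -0.95, -0.47 and -0.93 (log2). The part of this split in the added calls was not tested. Anxa1 missed the threshold without WT ifetroban replicate 2 (adjusted p = 0.0868) or KO vehicle replicate 1 (0.0837). Anxa2 missed it without WT vehicle replicate 2 (0.0829), WT ifetroban replicate 1 (0.0999) or 2 (0.169), KO vehicle replicate 1 (0.123) or 2 (0.0579), or KO ifetroban replicate 2 (0.0709).

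The S100 partners of these annexins overlapped between the genotypes. S100a11 (chromosome 3, 93520488 to 93526287, plus strand), a partner of Anxa1 and Anxa2, had 21.1, 13.03 and 9.81 CPM in KO ifetroban and 16.3 and 16.5 CPM in KO vehicle, against 9.37 and 5.95 CPM in WT ifetroban and 12.5 and 5.95 CPM in libraries labelled WT vehicle. KO ifetroban replicate 3 lay under the library labelled WT vehicle replicate 1. Its log2 fold change was 0.89 (SE 0.26, 95% interval 0.31 to 1.47), the largest estimate among the members, and the adjusted p was 0.121. Its counts were off whole numbers by more than 0.01 in 9 of 9 libraries, by up to 0.49, and those of Anxa6 in 8, by up to 0.07. The counting rule behind these fractions is not known here.
S100a10 (chromosome 3, 93555080 to 93564643, plus strand), also called p11, had 40.5, 21.1 and 22.3 CPM in KO ifetroban and 31.0 and 26.1 CPM in KO vehicle, against 19.1 and 14.2 CPM in WT ifetroban and 29.4 and 15.0 CPM in libraries labelled WT vehicle. The library labelled WT vehicle replicate 1 again lay among the KO libraries. The log2 fold change of S100a10 was 0.57 (SE 0.25, 95% interval 0.026 to 1.11, adjusted p = 0.29).

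Of the other annexins among the members, Anxa5 and Anxa4 were higher on average in KO without passing the test. Anxa5 (chromosome 3, 36448923 to 36475894, minus strand), which forms two-dimensional arrays on exposed phosphatidylserine, averaged 86.3 ± 10.4 CPM in KO (SD, n = 5) and 66.0 ± 5.52 CPM in WT (n = 4), a log2 fold change of 0.39 (SE 0.11, 95% interval 0.16 to 0.63, adjusted p = 0.0965). Anxa4 (chromosome 6, 86736840 to 86793584, minus strand), which bends membrane at the edge of a hole, averaged 21.3 ± 2.19 CPM in KO and 16.8 ± 1.53 CPM in WT, a log2 fold change of 0.34 (SE 0.11, adjusted p = 0.151). Anxa5 overlapped between genotypes by 1 KO library, KO ifetroban replicate 3 at 71.6 CPM, against 73.0 CPM in the library labelled WT vehicle replicate 1. Anxa6 (chromosome 11, 54979108 to 55033445, minus strand), the large annexin with a doubled core that forms the repair cap in muscle, averaged 149 ± 11.4 CPM in KO and 145 ± 1.74 CPM in WT. Its log2 fold change was 0.039 (SE 0.083, adjusted p = 0.858), and the 95% interval ran from -0.15 to 0.22, so rises above 0.22 lay outside it.

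Dysf (chromosome 6, 84008590 to 84211060, plus strand) had 66.2, 83.1 and 72.3 CPM in KO ifetroban and 66.8 and 56.9 CPM in KO vehicle, against 75.7 and 73.3 CPM in WT ifetroban and 48.7 and 72.1 CPM in libraries labelled WT vehicle. The lowest of the 9 values was that of the library labelled WT vehicle replicate 1. The mean was 69.1 ± 9.62 CPM in KO and 67.5 ± 12.6 CPM in WT, and the log2 fold change was 0.0083 (SE 0.12, 95% interval -0.26 to 0.28, adjusted p = 0.983). That estimate changed sign without the library labelled WT vehicle replicate 1, to -0.071. Antisense and pseudogene loci overlap Dysf, but they held at most 5 counts in a library.
Myof (chromosome 19, 37899036 to 38043577, minus strand) had 11.8, 14.1 and 15.5 CPM in KO ifetroban and 14.9 and 11.2 CPM in KO vehicle, against 11.8 and 9.16 CPM in WT ifetroban and 5.80 and 9.48 CPM in libraries labelled WT vehicle. Its log2 fold change was 0.56 (SE 0.17, 95% interval 0.18 to 0.94, adjusted p = 0.139). Myof passed the test when the length-slope set entered as a term (0.73, adjusted p = 0.0348).
Cav3 (chromosome 6, 112459505 to 112472872, plus strand), the muscle caveolin that holds dysferlin at the membrane, had 68.8, 55.5 and 49.3 CPM in KO ifetroban and 55.2 and 45.3 CPM in KO vehicle, against 37.7 and 37.1 CPM in WT ifetroban and 61.7 and 41.4 CPM in libraries labelled WT vehicle. The library labelled WT vehicle replicate 1 was second only to KO ifetroban replicate 1. The log2 fold change was 0.32 (SE 0.17, 95% interval -0.06 to 0.71, adjusted p = 0.393).

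**Figure D2:**
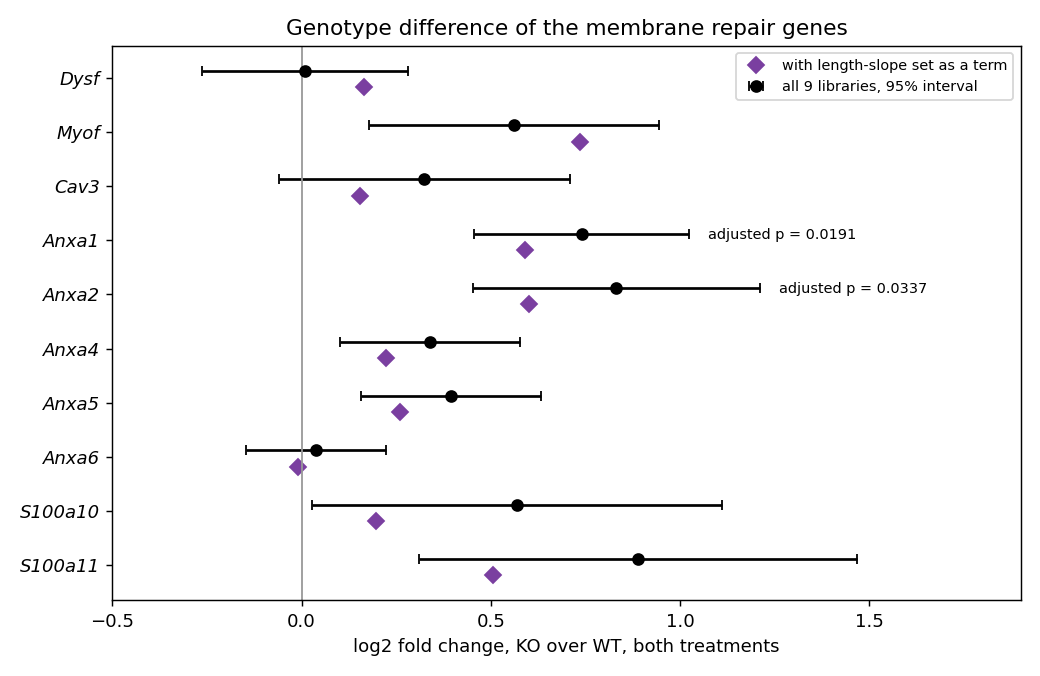
Log2 fold change of KO over WT over both treatments for each membrane repair gene. Black circles with bars are the estimates and 95% intervals from all 9 libraries, and purple diamonds are the estimates with the length-slope set as a term. The intervals of Dysf, Cav3 and Anxa6 include 0, and the adjusted p is printed for Anxa1 and Anxa2.

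Markers of other cell types moved with genotype beside these genes. The summed level of 10 macrophage markers was 510 to 573 CPM in KO libraries and 237 to 329 CPM in WT libraries, with 9 of 10 markers risen in KO. The 9 fibroblast markers summed to 1226 to 1937 CPM in KO and 868 to 1053 CPM in WT, with 4 risen, while 10 cardiomyocyte markers summed to 47480 to 57900 CPM in KO and 56980 to 65300 CPM in WT, with 0 passing the test. The 8 endothelial markers overlapped, at 863 to 1071 CPM in KO and 792 to 1081 CPM in WT, as did 8 smooth muscle and pericyte markers, at 970 to 1233 CPM in KO and 923 to 1171 CPM in WT. The library labelled WT vehicle replicate 1 had 329 CPM of macrophage and 868 CPM of fibroblast markers, both outside the KO range. Its cardiomyocyte markers, at 56980 CPM, were inside the KO range. None of the macrophage, fibroblast, cardiomyocyte or endothelial markers was at 0 in a library. The part of these markers in the member results was not tested, and in whole ventricle a change in the number of cells of a type and a change in RNA per cell cannot be told apart.
Lymphocyte markers (7) summed to 2.09 to 3.53 CPM in KO and 1.58 to 2.96 CPM in WT, with 0 of the 3 tested passing, and mesothelial markers (5) to 6.46 to 14.4 CPM in KO and 5.69 to 12.9 CPM in WT, with 0 of 5 passing. Adipocyte markers (4) summed to 0.655 to 2.39 CPM in KO and 0 to 0.527 CPM in WT, with all 4 at 0 in 1 WT library, and the 1 that could be tested rose in KO. Skeletal muscle markers (6) reached 22.7 CPM in KO ifetroban replicate 3, and at most 1.10 CPM in the other KO libraries and 0.851 CPM in WT libraries.

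**Figure D3:**
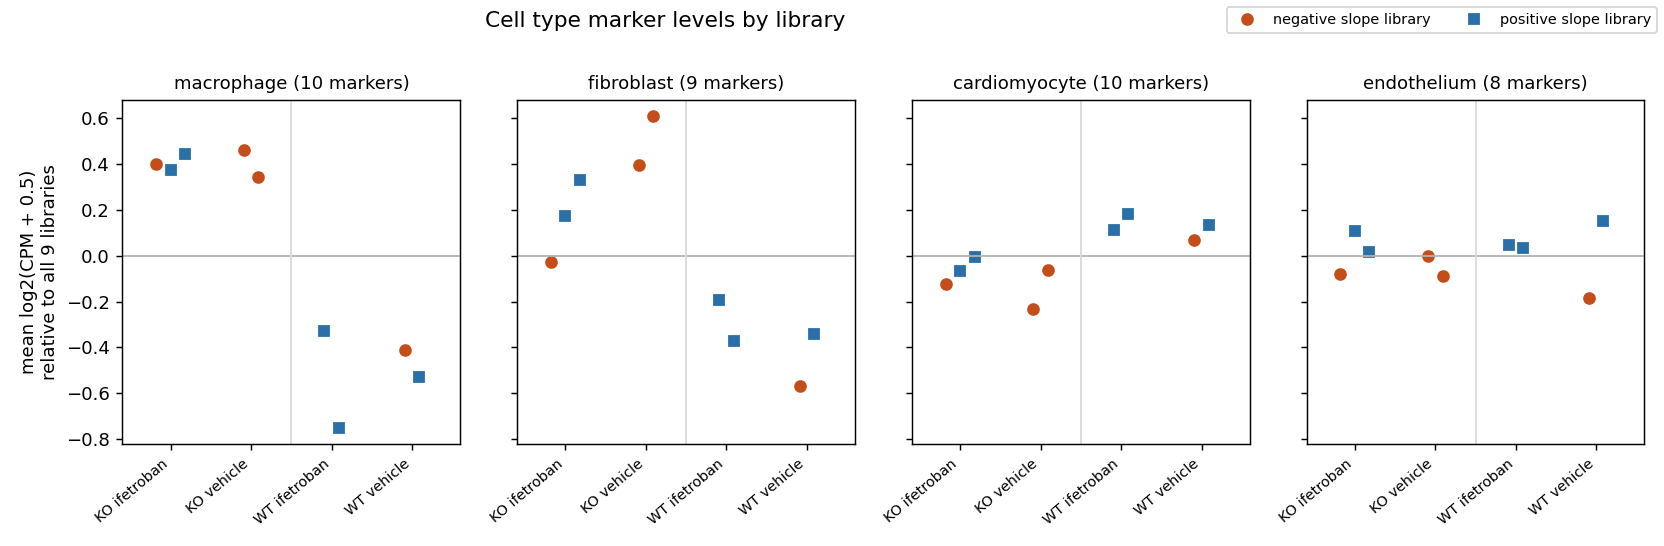
Mean log2(CPM + 0.5) of each marker list relative to all 9 libraries (y axis), by group (x axis), with 1 point per library coloured by the sign of its length slope. Macrophage points of the 5 KO libraries all lie above those of the 4 WT libraries, and the cardiomyocyte points of KO all lie below those of WT.

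The next question was whether the genotype difference was seen within each treatment. Under vehicle 0 members passed edgeR's test, against 0.0515% of all genes. At an unadjusted p under 0.05, 5 members were higher, against 5.21% of genes higher, and limma-voom called 0 and DESeq2 1 (Anxa1, with 0.926% of all genes). Log2 fold changes ran from -0.035 for Cav3 to 0.93 for Anxa1 (SE 0.19, adjusted p = 0.164), with 0.68 for Anxa2 (SE 0.26, adjusted p = 0.533). In 6 members, Myof, Anxa1, Anxa2, Anxa4, Anxa5 and S100a11, both KO libraries were above both WT libraries, and 18.3% of all genes had this order. Without the library labelled WT vehicle replicate 1 there were again 0 calls. Without both that library and KO ifetroban replicate 1 there were 6, for Anxa1, Anxa2, Anxa4, Anxa5, S100a10 and S100a11, with 9.63% of all genes called. That leaves 1 library in WT vehicle, of positive length slope, against 2 of negative slope in KO vehicle, and its spread is taken from the other groups.
Under ifetroban 0 members passed, against 0.0386% of all genes. At an unadjusted p under 0.05, 5 members were higher, against 6.24% of genes higher, and limma-voom called 0 and DESeq2 1 (Anxa2, with 1.87% of all genes). Log2 fold changes ran from -0.012 for Dysf to 0.96 for Anxa2 (SE 0.24, adjusted p = 0.187). The value for Cav3 was 0.63 (SE 0.20, adjusted p = 0.322). All 3 KO libraries were above both WT libraries in 7 members, Myof, Cav3, Anxa1, Anxa2, Anxa5, S100a10 and S100a11, an order found in 14% of all genes.

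Ifetroban was tested within each genotype and over both. In KO, edgeR called 0 members and 0% of all genes, with 1 member (Anxa1, lower) and 3.96% of genes at an unadjusted p under 0.05, and DESeq2 and limma-voom called 0 members. Anxa1 was 25.8, 18.5 and 21.2 CPM in KO ifetroban, against 29.6 and 26.9 CPM in KO vehicle, all lower and without overlap, an order found in 9.76% of genes. Its log2 fold change was -0.37 (SE 0.17, adjusted p = 0.862), the lowest among the members, and the highest was 0.26 for Dysf. Without both doubtful libraries, Anxa1 passed in this comparison (-0.51, adjusted p = 0.0263), with 11.6% of all genes called, and the slope sign then differed between all KO ifetroban and all KO vehicle libraries. Its value was -0.16 with the slope set as a term (adjusted p = 0.769) and -0.13 in negative-slope libraries alone (adjusted p = 0.838).
In WT, edgeR called 0 members and 0% of all genes, with 2.25% at an unadjusted p under 0.05, none of them a member, and DESeq2 and limma-voom called 0 members. Log2 fold changes ran from -0.46 for Cav3 (adjusted p = 0.881) to 0.45 for Myof. Cav3 was 37.7 and 37.1 CPM in WT ifetroban, against 61.7 and 41.4 CPM in libraries labelled WT vehicle, without overlap, as in 13.8% of genes. The value of 61.7 CPM was in the library labelled WT vehicle replicate 1, the only WT library of negative length slope.
Over both genotypes edgeR called 0 members and 0% of all genes, with 1 member (Dysf, higher) and 7.96% of genes at an unadjusted p under 0.05, and DESeq2 and limma-voom called 0 members. Dysf averaged 74.1 ± 6.13 CPM on ifetroban (SD, n = 5) and 61.1 ± 10.4 CPM on vehicle (n = 4). Its log2 fold change was 0.28 (SE 0.12, adjusted p = 0.545). Treatment and length slope largely coincided. Of the vehicle libraries only WT vehicle replicate 2 had a positive slope, and of the ifetroban libraries only KO ifetroban replicate 1 a negative one. Dysf was 0.37 higher on the log2 scale in positive-slope libraries. The test of whether the ifetroban difference itself differed between KO and WT called 0 members and 0% of all genes, with 1 member (Cav3) and 1.92% of genes at an unadjusted p under 0.05, and 0 members by DESeq2 and limma-voom. Cav3 had the largest difference in that test, 0.66 on the log2 scale (SE 0.30, adjusted p = 1.00). Comparisons within the study share libraries, so their values are given side by side and not as support for each other.

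**Figure D4:**
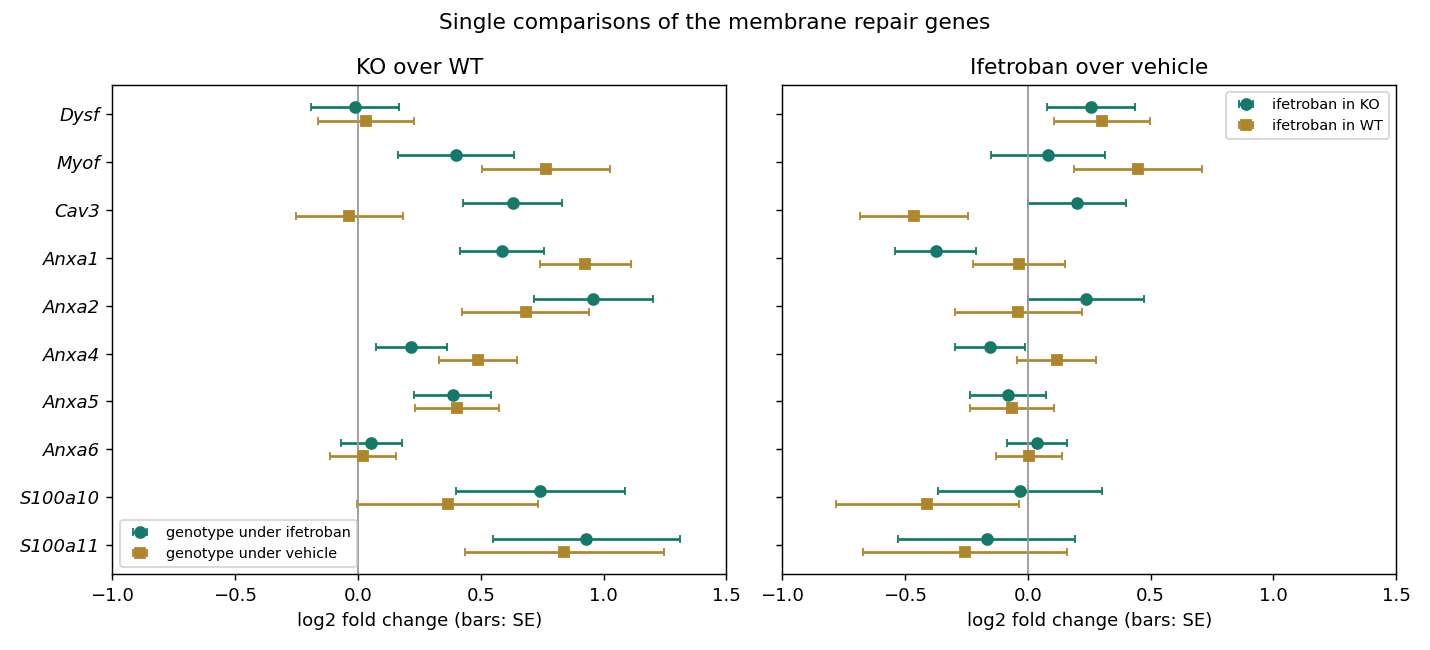
Log2 fold change of each membrane repair gene with its standard error, for KO over WT under ifetroban and under vehicle (left) and for ifetroban over vehicle in KO and in WT (right). In the left panel Anxa1 and Anxa2 lie right of 0 under both treatments, and in the right panel the values run from -0.46 to 0.45.

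The split of the libraries by transcript length ran through these genes. With the groups in the model, 7 of the 10 members differed between the sets, against 27.3% of all genes, a description only, since these values also defined the sets. The shortest transcripts, S100a11 (511 bases) and S100a10 (685 bases), were lower in the positive-slope libraries by 0.95 and 0.93 on the log2 scale, and the longest, Dysf (6803 bases) and Myof (7094 bases), were higher there by 0.37 and 0.47. Anxa2 (2280 bases) stood at -0.56 and Anxa6 (2489 bases) at -0.11.
KO and WT were therefore also compared within each set. In the negative-slope set (3 KO libraries and the 1 labelled WT vehicle replicate 1), the ratio of KO to WT means was 1.70 for Anxa2, 1.69 for Anxa1, 2.18 for Myof, 1.44 for S100a11 and 1.27 for Anxa5. In the positive-slope set (2 KO and 3 WT libraries) it was 1.67 for Anxa2, 1.40 for Anxa1, 1.46 for Myof, 1.61 for S100a11 and 1.21 for Anxa5. In the negative-slope set the KO libraries were all above the 1 WT library in these 5 genes, Dysf and Anxa4, as in 31.9% of all genes. In the positive-slope set every KO library was above every WT library in these 5 genes, Cav3 and S100a10, as in 14.8% of all genes. The 5 genes were listed because they had this order in both sets. The share of all genes with it in both sets was not computed, so nothing is read from their number. The ratio for Cav3 was 0.915 in the negative-slope set and 1.35 in the positive-slope set, and that for Dysf was 1.30 and 1.05. The Sgcd ratio was 1.02 in the negative-slope set and 0.578 in the positive-slope set. With the set as a term over all libraries, Anxa1 (0.59, adjusted p = 0.0138), Anxa2 (0.60, adjusted p = 0.0313) and Myof passed, with 3.04% of all genes, and S100a10 stood at 0.20 (adjusted p = 0.459).

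**Figure D5:**
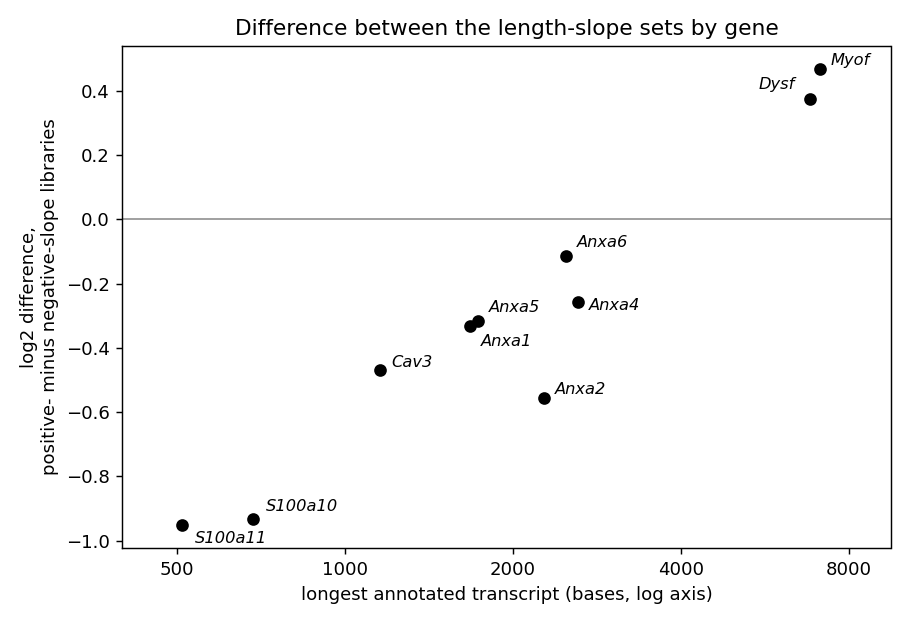
Difference of each membrane repair gene between positive-slope and negative-slope libraries (y axis, log2) against the length of its longest annotated transcript (x axis, bases, log axis). Each point is 1 gene, and the values run from -0.95 for S100a11 to 0.47 for Myof.

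The other genes of the pathway were read from 8 lists with 81 genes, of which 66 were tested. Over both treatments 1 of the 66 rose in KO and 0 fell by edgeR, against 2.06% and 0.27% of all genes. The median log2 fold change was 0.060. At an unadjusted p under 0.05 there were 16 of the 66, against 16.1% of all genes. DESeq2 called 6 of the 66, all higher, against 5.76% of all genes in either direction. By limma-voom it was 1 of the 66, against 2% of all genes. In each of the other comparisons edgeR called 0 of the 66.
The gene that rose was Plat, tissue plasminogen activator, whose cell-surface receptors include the Anxa2 and S100a10 tetramer. It had 23.7, 24.4 and 21.8 CPM in KO ifetroban and 26.7 and 24.2 CPM in KO vehicle, against 18.3 and 17.1 CPM in WT ifetroban and 15.5 and 18.6 CPM in libraries labelled WT vehicle, without overlap. The log2 fold change was 0.48 (SE 0.095, adjusted p = 0.0293), and 4 genes of plasminogen activation were tested. The call was lost, at adjusted p from 0.0546 to 0.129, without KO ifetroban replicate 2, KO vehicle replicate 1 or 2, WT ifetroban replicate 1 or 2, or WT vehicle replicate 2.
Among relatives and partners of dysferlin 0 of 10 passed. Ahnak2, a relative of the dysferlin partner Ahnak, had a log2 fold change of 0.66 (adjusted p = 0.0721) and Bin1, which shapes T-tubule membrane, 0.50 (adjusted p = 0.139). Among caveolar genes 0 of 8 passed, with 0.40 for Cavin3 (adjusted p = 0.113) and 0.19 for Pacsin3, a membrane-bending protein of muscle caveolae (adjusted p = 0.314). Among other annexins 0 of 4 passed, with 0.40 for Anxa7 (adjusted p = 0.0684) and 1.53 for the low gene Anxa8 (adjusted p = 0.151). Anxa7 had 74.8 to 94.9 CPM in KO and 56.8 to 67.1 CPM in WT. Among other S100 genes 0 of 8 passed, with a list median of 0.61. Their values were 0.72 for S100a6, the calcium-binding protein calcyclin (adjusted p = 0.0781), and 1.62 for S100a4, often used to mark fibroblasts and leukocytes (adjusted p = 0.13).
Calpains include calcium-activated proteases that cut repair proteins, dysferlin included. Among the calpains and related genes listed, 0 of 9 passed, with -0.20 for Capn7 and 0.12 for Capn2, the catalytic subunit of m-calpain. The ESCRT machinery pinches off damaged membrane, and 0 of 13 passed, with -0.29 for Chmp4c and 0.19 for Chmp4b. Genes of vesicle fusion and lysosomal exocytosis gave 0 of 10, with 0.26 for the lysosomal protease Ctsb and -0.38 for Syt7, a calcium sensor of lysosomal exocytosis.

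Across the 9 libraries the members varied in blocs. Pearson's r of log2 CPM was 0.97 between Anxa5 and S100a11, 0.95 between Anxa5 and Anxa2 and 0.94 between S100a10 and S100a11, while it was 0.66 between Dysf and Myof, -0.51 between Dysf and S100a10 and -0.02 between Dysf and Anxa2. Among 8028 genes, leaving out the members and predicted-gene symbols, those most like Dysf were Slc39a9 (r = 0.991), Vcl (0.973) and Myh9 (0.968). Those most like Anxa2 were Arhgdia (0.988), Fxyd5 (0.978) and the pseudogene Eif4a-ps4 (0.978). These values are descriptions over 9 libraries that differ in genotype, treatment, depth and length slope, whose part in them was not tested.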

How the data were processed

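Ventricle RNA was sequenced in 9 libraries, grouped by title and source name. The deposited values are expected counts per gene, not scaled between libraries, and 28.2% of them are not whole numbers. The submitters' processing notes name bcl2fastq, STAR, Partek and the build mm10 without versions or roles, and for the counting and strand rules they are silent, so these are not given here. The end coordinates in the files were lowered by 1, which then matched GENCODE M21 for 15556 of 19704 shared symbols.

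Counts were rounded, genes filtered with filterByExpr (minimum count 10; 15549 kept) and libraries scaled with TMM factors. CPM are TMM-scaled. The quasi-likelihood test of edgeR 4.0.16 (R 4.3.3, robust) was fitted on all 9 libraries, with 4 group means for single comparisons and the interaction, and additively for genotype over treatments and ifetroban over genotypes. P-values were adjusted by Benjamini-Hochberg over all genes at 0.05, and SE is the log2 fold change over the square root of F. The common biological coefficient of variation was 0.168. DESeq2 1.42.0, limma-voom (limma 3.58.1), other scaling and filters, a replicate block, the length-slope set as a term or alone, a length and GC offset and each library left out were alternatives. Omission of both doubtful libraries, and the alternatives run on Sgcd and Plat, were chosen after seeing the data. The steps were tested on simulated counts without a length slope, so that test does not show how they handle the slope.

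The members, lists, rules and tests were chosen with earlier results of these data known. All members were named, and for each list the passing genes or, with none, the 2 with the smallest p. Likeness was Pearson's r of log2 CPM among genes averaging at least 10 CPM, for Dysf and Anxa2. The members and predicted-gene symbols (Gm and Rik) were left out of it. Cavin genes appear under older symbols and were matched through RefSeq synonyms.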

Additional observations from a re-analysis of the deposited data

Results flagged for a closer look

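Dysf in the library labelled WT vehicle replicate 1 stood at 48.7 CPM, far from the other 3 WT libraries (72.1 to 75.7 CPM). The gap to its nearest neighbour was 0.868 of the range of the WT libraries, above Dixon's 95% critical value for 4 samples. It was the 1 such value among 20 sets of libraries (10 genes in KO and in WT), and chance gives about 1 in 20. That library is also the WT library with a negative length slope and the one with Sgcd in the KO range, and their part in the value was not tested.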

How the results depend on the processing

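The labels do not say whether replicate numbers pair the samples. Differences between replicates 1 and 2 correlated at -0.038 to 0.48 between groups. The highest value was between WT vehicle and KO ifetroban. In these groups alone, replicates 1 and 2 differed in the sign of the length slope, so the correlations cannot tell pairing from slope. With the replicate block, 5 members (and 3.54% of all genes) passed over both treatments, 1 (0.36%) under vehicle and 1 (1.11%) under ifetroban, against 2, 0 and 0 without the block. DESeq2 called 5 (5.76%), 1 (0.926%) and 1 (1.87%). The length and GC offset gave 5 (5.11%) over both treatments and 1 (0.212%) under vehicle. The slope set as a term gave 1 under vehicle (Anxa1, 0.759%) and 1 under ifetroban (Anxa2, 0.92%), negative-slope libraries alone gave 2 (1.6%) under vehicle, and KO ifetroban replicate 1 counted as vehicle gave 1 (0.18%) there. With libraries left out, calls ranged from 0 to 4 over both treatments, from 0 to 6 under vehicle and from 0 to 1 for ifetroban in KO, the highest of each without both doubtful libraries.

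Signs changed for several genes. Under vehicle, Cav3 became 0.13 with KO ifetroban replicate 1 as vehicle. Anxa6 became -0.00094 with the stricter filter, -0.039 with the slope term and -0.061 with the offset. S100a10, at 0.36 as reported, became -0.025 with the slope term and -0.040 in negative-slope libraries alone. Under ifetroban, Dysf became 0.0047 with the stricter filter, 0.0060 with the compared groups only, 0.061 with KO ifetroban replicate 1 as vehicle, 0.11 with the slope term, 0.079 in positive-slope libraries alone and 0.087 with the offset. Anxa6 became -0.018 with that library as vehicle, -9.9e-05 in positive-slope libraries alone and -0.040 with the offset. Over both treatments, Anxa6 became -0.0082 with the slope term and -0.049 with the offset. With libraries left out, Dysf ranged from -0.22 to 0.34 under vehicle, from -0.088 to 0.080 under ifetroban and from -0.071 to 0.11 over both. Under vehicle Cav3 ranged from -0.30 to 0.29, Anxa6 from -0.034 to 0.063 and S100a10 from -0.046 to 0.93. Anxa6 ranged from -0.017 to 0.14 under ifetroban. In the ifetroban comparisons and the interaction, where no member passed as reported, signs changed more often, in 39 values in WT, 29 in KO, 19 over both genotypes and 32 for the interaction, against 16 under vehicle, 16 under ifetroban and 6 over both treatments for genotype. Members above 0 across the alternatives numbered 3 to 9 for ifetroban in WT, 2 to 8 in KO, 2 to 8 over both genotypes and 1 to 7 for the interaction. The cause of these changes was not tested. Anxa1 and Anxa2 were above 0 over both treatments under every alternative run, from 0.59 to 0.83 for Anxa1 and from 0.60 to 0.95 for Anxa2. Fits on the compared groups only do not apply to the interaction and additive models, and fits within a slope set were run only for the comparisons each set allows. Groups held 2 or 3 libraries, and the part of depth was not tested.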

Other observations

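The balance of the Anxa2 and S100a10 pair, whose products form a tetramer, was read as a ratio of levels per kilobase within each library. S100a10 over Anxa2 was 1.24, 0.93 and 1.24 in KO ifetroban and 1.40 and 1.34 in KO vehicle, against 1.38 and 1.25 in WT ifetroban and 2.02 and 1.32 in libraries labelled WT vehicle. The library labelled WT vehicle replicate 1 had the highest ratio and the genotypes overlapped. Anxa2 over Dysf was 4.92, 2.71 and 2.48 in KO ifetroban and 3.28 and 3.41 in KO vehicle, against 1.81 and 1.54 in WT ifetroban and 2.97 and 1.56 in libraries labelled WT vehicle. In this ratio the genotypes overlapped through the library labelled WT vehicle replicate 1 alone. The genes differ in transcript length and the libraries in length slope, whose part in these ratios was not tested.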
